A study of Mus musculus with 3 samples.

Results

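Adipokines are proteins that fat cells secrete, and the genes described here encode adiponectin (Adipoq), resistin (Retn), adipsin (Cfd), retinol-binding protein (Rbp4), the NAD-synthesizing enzyme visfatin (Nampt), lipoprotein lipase (Lpl) and the angiopoietin-like proteins Angptl2, Angptl4 and Angptl8. These 9 genes are a list of names, drawn up with earlier results of these arrays known. Every probe set whose annotation carries exactly one of these symbols was read, which gave 11 of 45101 probe sets for 7 of the 9 genes. Cfd and Angptl2 had no probe set named under this rule and were not analysed here. Of the 11 probe sets, 9 reached a signal of 100 on 1 or more arrays and were kept, and they covered all 7 genes among 6896 genes read in the whole series.

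The cells were iBATs, immortalized mouse brown preadipocytes differentiated in culture with insulin and indomethacin and harvested on day 8. Isoproterenol (ISO), an agonist of all β-adrenergic receptors, was given at 1 μM for 0, 1 or 2 h, with the 0 h cells as the baseline. RNA of each time point was hybridized to 1 Affymetrix array, so the groups differ in the time of ISO and share the cell line, the differentiation mix and the day. A ratio therefore compares 1 array with another, without an estimate of error and without a p-value. The series holds no vehicle array at 1 or 2 h, so ISO cannot be told apart from handling, elapsed time or the array itself. iBATs are a single immortalized line in culture, without the vessels and nerves of brown fat.

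Adiponectin acts on liver and muscle to raise insulin sensitivity, and resistin of mouse adipocytes has the opposite action. Rbp4 carries retinol in plasma, and Nampt makes the precursor from which cells rebuild NAD. Lipoprotein lipase is made by adipocytes, moved to the capillary wall and there cuts the triglyceride of circulating lipoproteins, which supplies brown fat with fatty acids. Angptl4 inactivates the lipase, largely within adipose tissue, while Angptl8, which has no fibrinogen-like domain, is a regulator of lipoprotein triglyceride that responds to feeding and insulin.

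Angptl8 alone among the 7 genes was higher after 1 h of ISO by the threshold used, and the other 6 did not pass it at 1 or 2 h. A gene counted as called at a change of at least 2^0.8-fold (a log2 ratio of 0.8), the size used in the paper for 1 h. At 1 h over 0 h, 1 of the 7 genes was higher, where 1.58% of all genes read were, and none was lower, where 0.218% were. Angptl8, the gene called, was below 100 at 0 h and was read because its signal rose. With 100 required on all 3 arrays the count is 0. At 2 h over 0 h no gene of the 7 was higher and none lower, where 2.73% and 0.812% of all genes were. In the second hour of ISO (2 h over 1 h) none was called either, where 0.667% of all genes were higher and 0.319% lower. The genes were chosen with earlier results known, so these counts are no test of them. Beside such low shares, a lack of calls among 7 genes is not a result about them. Median log2 ratios of the 7 genes to 0 h were 0.00 for the first hour and -0.06 for both hours, beside -0.02 and -0.07 over all genes. In the second hour the 7 genes had a median of -0.19 and all genes one of -0.04.

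**Figure D1:**
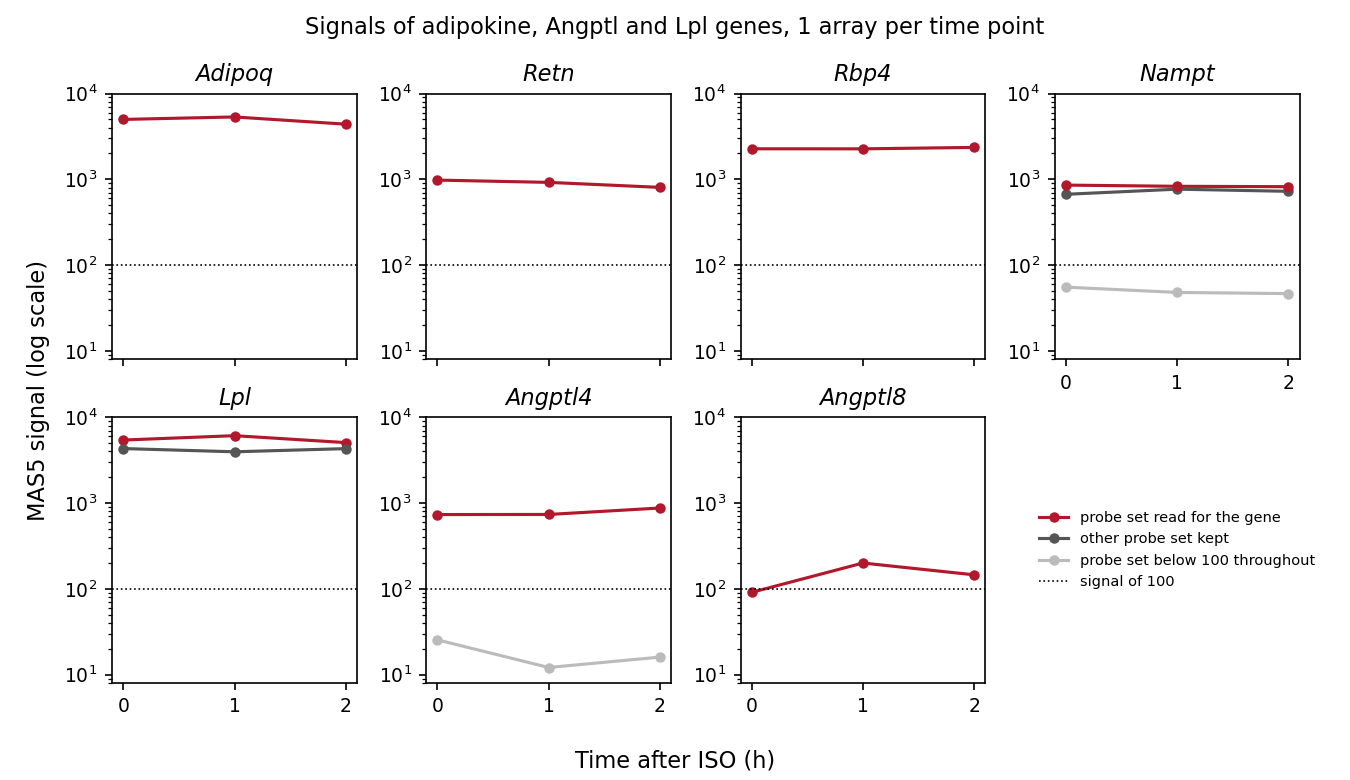
Signals of each probe set of the 7 genes on a log scale (vertical axis, MAS5 units) over hours of ISO (horizontal axis), each point being 1 array without error bars, with the probe set read for the gene in red, other kept probe sets in dark grey and those below 100 throughout in light grey. Angptl8 crosses the dotted line at a signal of 100 between 0 and 1 h, and the red lines of the other 6 genes are nearly flat.

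The Angptl8 probe set gave 90.9 before ISO, 199.8 after 1 h and 145.5 after 2 h. The signal was thus highest at 1 h and still above its 0 h value at 2 h. It was 2.2-fold higher at 1 h than at 0 h (log2 ratio 1.14) and at 1.6-fold of 0 h at 2 h (0.68, not called), and between these 2 arrays (2 h over 1 h) the log2 ratio was -0.46. The spread of log2 ratios among genes of similar mean signal, a robust standard deviation that holds real change as well as noise, was 0.22 for the first hour, 0.26 for both hours and 0.21 for the second hour. Of all 6896 genes, 68 had a larger log2 ratio at 1 h and 224 at 2 h. Angptl8 was read because its signal passed 100 at 1 and 2 h, and a filter of this kind keeps a dim gene that rises while it drops one that stays dim. With signals below 100 set to 100 it was still called at 1 h, whereas it was not read at all where 100 was asked of all 3 arrays or 200 of 1 or more.

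The 3 genes nearest to Angptl8 in their pair of log2 ratios at 1 and 2 h, by Euclidean distance over 3 arrays, were Hoxa5, Midn and Ier5. Hoxa5, a homeobox gene, was at a distance of 0.17, with signals of 53.7, 119.3 and 96.6 at 0, 1 and 2 h. Midn, which encodes midnolin, was at 0.21, with 205.8, 416.7 and 292.7. Ier5, an immediate early gene, was at 0.25, with 191.2, 369.3 and 341.9. Their course was fixed by this choice, and Hoxa5 was read because its signal passed 100 at 1 h alone. Angptl8 lies within the annotated span of Dock6, a gene of the opposite strand for an exchange factor of small G proteins. The brighter probe set of Dock6 had signals of 31.1, 32.5 and 21.1, below 100 throughout, and the other did not exceed 2.0.

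To show the sequence in front of the gene that was called, the 250 bases before the Angptl8 start are printed from RefSeq, on the plus strand of chr9:21835260-21835509 in GRCm38.p6.
Angptl8: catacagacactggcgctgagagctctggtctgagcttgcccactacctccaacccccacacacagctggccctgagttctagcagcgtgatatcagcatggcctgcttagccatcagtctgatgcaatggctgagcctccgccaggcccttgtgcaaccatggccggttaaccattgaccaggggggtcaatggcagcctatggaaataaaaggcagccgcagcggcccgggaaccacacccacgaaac

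Nothing is in capitals because this window held none of the motifs searched on both strands: the full cyclic AMP response element TGACGTCA (in 1.55% of 32851 windows of this length), its shorter core TGACG (17.8%), the E-box CACGTG (6.02%), the TATA box TATAAA (12.4%) and the direct repeat bound by PPAR, which is AGGTCA repeated after any 1 base (0.0335%, or 0.484% with 1 mismatch). This core is part of the full element. A mismatch was allowed for the direct repeat only, so a run 1 letter away from another motif, such as the TATA box, was not counted. Of the 7 genes, 5 were in the promoter table, with 6 windows, and Lpl and Angptl4 were not. The core TGACG was found in front of Nampt and in 1 of the 2 windows of Rbp4, neither of which was called. These stretches are shown, with the core in capitals, to set them beside the Angptl8 window, for Nampt on the plus strand of chr12:32820182-32820222 and for Rbp4 on the minus strand of chr19:38124961-38125001.
Nampt: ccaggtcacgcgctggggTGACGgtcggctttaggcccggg
Rbp4: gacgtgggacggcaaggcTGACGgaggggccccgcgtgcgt

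A TATA box was also present in that Rbp4 window, and the windows of Adipoq and Retn held none of the motifs. A match is a run of letters and not a measured binding site.

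Lpl was read from 2 probe sets, which differed in their course. The one with the higher mean signal had 5419.6, 6096.6 and 5061.8 at 0, 1 and 2 h. The other had 4313.7, 3955.0 and 4306.8. The first was highest at 1 h and the second lowest there. Their log2 ratios to 0 h were 0.17 and -0.13 after 1 h, and -0.10 and -0.00 after 2 h, so that neither probe set was called and the directions at 1 h were opposite. The spread among genes of similar signal was 0.09 for the first hour and 0.12 for both. For 2 h over 1 h the log2 ratios of the 2 probe sets were -0.27 and 0.12, where the spread was 0.12.

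Angptl4 had 733.7, 735.7 and 874.8 at 0, 1 and 2 h. The 0 and 1 h signals were nearly equal and the 2 h signal was 19.2% above that at 0 h, a log2 ratio of 0.25 where the spread was 0.18. Of all genes, 863 had a larger log2 ratio at 2 h. A second probe set of Angptl4 had 25.4, 12.1 and 16.0 and was not read, being below 100 on all arrays. Its log2 ratios to 0 h were -1.07 and -0.67, so at 2 h its sign was opposite to that of the probe set read. The probe set read has the suffix _s_at, and with such probe sets left out Angptl4 was not read. As a description, Angptl8 was thus highest at 1 h and Angptl4 at 2 h, and only the first of these passed the threshold.

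Adipoq, read from 1 probe set, had 4986.4, 5329.8 and 4388.8 at 0, 1 and 2 h. It was lowest at 2 h, and its log2 ratios to 0 h were 0.10 and -0.18. For 2 h over 1 h the log2 ratio was -0.28, where the spread was 0.12. Retn had 978.6, 920.5 and 805.0, and the signal at 2 h was likewise the lowest. Its log2 ratios to 0 h were -0.09 and -0.28, with spreads of 0.13 and 0.18, and 1250 of all genes had a lower ratio at 2 h. None of these differences of Adipoq and Retn reached 2^0.8-fold.

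Rbp4 had signals of 2266.9, 2264.5 and 2352.4 at 0, 1 and 2 h, and its log2 ratios were -0.00 and 0.05 at 1 and 2 h. Nampt was read from its brighter probe set, with 855.6, 828.5 and 819.9, and log2 ratios of -0.05 and -0.06. A second kept probe set of Nampt had 668.3, 767.1 and 724.0, with 0.20 and 0.12, so the 2 differed in sign at both times. The dimmest of the 3, with 55.3, 48.0 and 46.5, was below 100 on all arrays and not read. Rbp4 and the main probe set of Nampt differed from 0 h by less than the spread at either time. By their main probe sets, Lpl and Adipoq at 1 h, and Adipoq, Retn and Angptl4 at 2 h, differed by more than it. Over the 6 genes other than Angptl8, log2 ratios lay between -0.09 and 0.17 at 1 h and between -0.28 and 0.25 at 2 h. Of all genes, 67.5% and 70.9% had absolute ratios no larger than the largest of these. For 2 h over 1 h the range was -0.28 to 0.25, and the share was 82.9%.

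**Figure D2:**
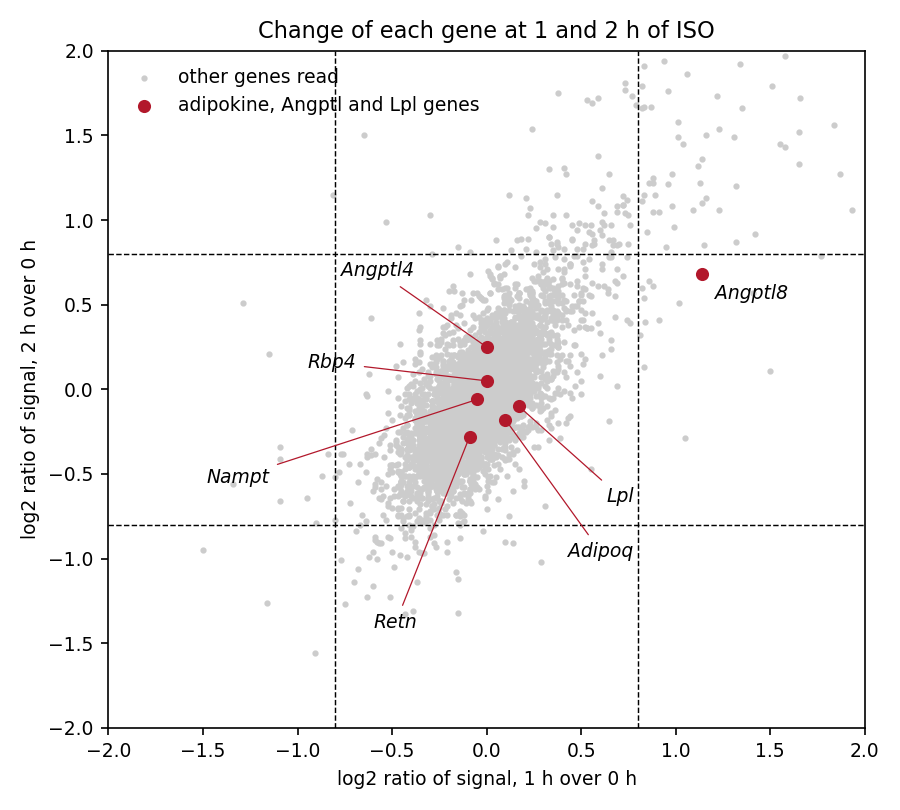
Log2 ratio of signal at 1 h over 0 h (horizontal axis) against that at 2 h over 0 h (vertical axis), 1 point per gene, with the 7 genes in red, the other genes read in grey and dashed lines at 0.8 and -0.8. The axes end at 2 and -2 and leave out 49 of 6896 genes, and both ratios share the 0 h array. Angptl8 lies at 1.14 and 0.68, past the threshold at 1 h only, and the other 6 lie inside the dashed lines.

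Genes that act on the lipase or on the fatty acids it releases were listed next. Of 20 such genes named on the array 10 were read, none was called at 1 h, and Sdc4 was higher at 2 h, with list medians of -0.04 and -0.13. Over all genes 1.58% were higher at 1 h and 2.73% at 2 h, and a count this low is not a result about the list. Sdc4, a cell surface heparan sulfate proteoglycan, had signals of 333.2, 531.1 and 598.8 at 0, 1 and 2 h and a log2 ratio of 0.85 at 2 h, a call that ended with 32 added to every signal and at a threshold of 2-fold. Cd36, the fatty acid transporter, had 2656.8, 2560.9 and 2256.9, and Fabp4, the fatty acid-binding protein of adipocytes, had 7490.0, 7871.8 and 7095.6. Gpihbp1, the endothelial protein that carries the lipase into capillaries, did not exceed 11.4, Apoc2, the cofactor of the lipase, did not exceed 17.0, and Lmf1, which the lipase needs for folding, did not exceed 63.2.

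Of 21 receptors, partners and secretion factors of the adipokines named on the array, 10 were read and none was called, which beside the same shares over all genes is not a result about the list. The list had medians of 0.06 and 0.07 on the log2 scale. The adiponectin receptor gene Adipor1 had signals of 757.6, 885.6 and 786.6 at 0, 1 and 2 h, and Adipor2 had 798.2, 795.1 and 845.2. Ero1a, an oxidase of the endoplasmic reticulum that assists adiponectin secretion, had 1534.6, 1731.9 and 2075.8, and its log2 ratio after 2 h was 0.44. Genes of NAD synthesis and use, with 10 of 19 read and Nampt among them, likewise held no call, with the same limit, and had medians of -0.05 and -0.13. Sirt3, a mitochondrial deacetylase that uses NAD, had the lowest ratio of them at 2 h, -0.45, with signals of 224.2, 212.4 and 163.6.

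Among other adipokines and relatives of the 7 genes, 14 of 35 named on the array were read. Of these, 2 were higher at 1 h and 3 at 2 h, and none was lower, with medians of 0.01 and 0.11. Over all genes 1.58% were higher at 1 h, 2.73% at 2 h and 0.667% for 2 h over 1 h. The list was chosen with earlier results known, so these counts are no test of it. Il6, a cytokine gene, had signals of 20.7, 406.6 and 981.6. Fgf21, which encodes a metabolic hormone, had 43.3, 123.6 and 149.7. Il6 and Fgf21 were below 100 at 0 h and were read because their signals rose. Both were called at both times, and Metrnl, which encodes the secreted protein meteorin-like, joined them at 2 h with 117.7, 160.3 and 217.8 (log2 ratio 0.89), a call that ended with 32 added to every signal and at a threshold of 2-fold. For 2 h over 1 h, Il6 (1.27) and Lcn2 (0.81), which encodes lipocalin 2, were higher. Lcn2 had signals of 115.9, 90.3 and 158.8, and this call ended with signals below 100 set to 100, with 32 added, with the same median on each array, with 200 required on any array and at 2-fold. With 100 required on all 3 arrays these counts are 0 at 1 h, 1 at 2 h and 0 for 2 h over 1 h, and with signals below 100 set to 100 the calls of Fgf21 end. The leptin gene Lep did not exceed 17.3 and the apelin gene Apln did not exceed 79.3. C1qtnf12, a relative of adiponectin, had 652.8, 546.7 and 454.4, and its log2 ratio of -0.52 at 2 h was not called. Angptl6 was the 1 other angiopoietin-like gene read, with 234.7, 251.1 and 233.1.

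Angptl4 is a known target of PPAR nuclear receptors, and other PPAR targets of adipocytes were listed beside it. Of 18 named on the array 14 were read, and the same 4 genes, Pck1, Hilpda, Pdk4 and Fgf21, were higher at 1 h and at 2 h. None was lower, and the medians were 0.03 and 0.12. Over all genes 1.58% were higher at 1 h and 2.73% at 2 h. The list was chosen with earlier results known, so this count is no test of it. Hilpda and Fgf21 were below 100 at 0 h and were read because their signals rose. Fgf21 was also counted in the list before. Hilpda, which encodes an inhibitor of the intracellular lipase ATGL, had signals of 82.2, 293.2 and 480.8. Pdk4, a kinase that inhibits pyruvate dehydrogenase, had log2 ratios of 1.48 and 2.06, and Pck1, an enzyme of glyceroneogenesis, had 2.36 and 2.83. Plin2, a lipid droplet protein, had 2013.3, 2764.8 and 2976.7, with log2 ratios of 0.46 and 0.56 that were not called. With 100 required on all 3 arrays, 2 genes of the list are higher at each time, and 3 with signals below 100 set to 100. The log2 ratios of Angptl4 in the same comparisons were 0.00 and 0.25.

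**Figure D3:**
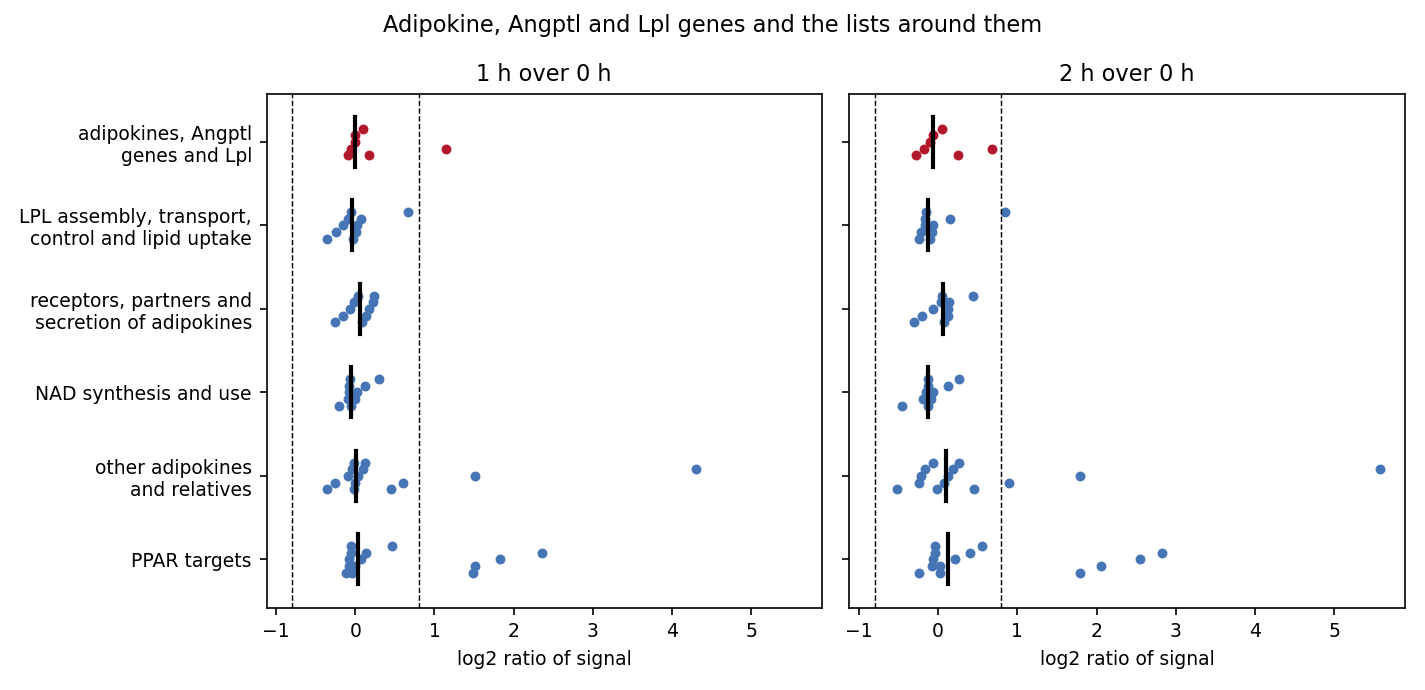
Log2 ratio of signal (horizontal axis) at 1 h over 0 h (left) and 2 h over 0 h (right) for the 7 genes (red) and the read genes of 5 lists (blue), 1 row per list and 1 point per gene, with medians as black bars and dashed lines at 0.8 and -0.8. Most points lie near 0 in every row, and Il6, at 4.30 and 5.57, is the point farthest to the right in both panels.

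The culture had the signals of adipocytes, beside those of some preadipocyte and fibroblast markers. All 7 adipocyte markers named on the array were read, among them Lpl and Adipoq, and none was called. Of 8 brown adipocyte markers 6 were read, whereas Dio2 and Elovl3 did not exceed 9.8 and 41.6. Among the 6, Ucp1, the uncoupling protein of brown fat, was higher at 1 h and 2 h (log2 ratios 1.31 and 1.49), with signals of 1485.7, 3673.2 and 4166.1 at 0, 1 and 2 h. Ppargc1a, a transcriptional coactivator, had 293.4, 487.6 and 1029.9 and was higher at 2 h over 0 h (1.81) and over 1 h (1.08). None of the 6 was called lower, but Prdm16 (-0.63), Cox8b (-0.44) and Cox7a1 (-0.18) had log2 ratios below 0 at 2 h. Cidea had 0.40 there, which was not called. Of 7 preadipocyte and fibroblast markers 5 were read, none called, with medians of 0.03 and -0.00. Their 0 h signals were 4132.8 for Col1a2, 1013.3 for Pdgfrb, 491.0 for Col1a1, 383.2 for Pdgfra and 124.3 for Dlk1. Thy1 and Cd34 did not exceed 9.9 and 19.4. None of 8 macrophage and leukocyte, 6 endothelial and 6 muscle markers reached 100, with Cd14 at most at 93.2, Kdr at most at 9.3 and Des at most at 77.9. In a culture measured in bulk, fewer cells of a type and less RNA per cell cannot be told apart.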

How the data were processed

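Labelled RNA was put on Affymetrix Mouse Genome arrays by the authors, who deposited 1 linear MAS5 intensity per probe set and array, per the labels and the methods. The deposited intensity values of each array average 100.0 after 2% is trimmed from each end, and the methods' filter on absent calls and low values is not applied in them. Depth has no meaning for arrays, and their number, 3 in all, limits the precision. No further scaling was done. Signals of different probe sets were ordered within a gene to choose the one read, and over all genes to form classes for the spread. They were also ordered within lists, to name bright genes.

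Probe sets with 1 gene symbol in the archive's array annotation were used (34958 of 45101), 932 with several symbols were left out, and 9211 were unnamed here. The 11 probe sets of these genes matched the RefSeq gene table (GRCm38.p6) by gene identifier with no change of symbol. For each gene the probe set with the highest mean was taken among those that reached 100 on any array, and signals listed as 0 were given 0.1 before log2. The spread was computed over genes of like mean signal, in 20 classes, as the median absolute deviation multiplied by 1.4826. Calculations used Python 3.11.15, numpy 2.4.6, pandas 2.3.3, matplotlib 3.10.9, R 4.3.3 and limma 3.58.1, and the calls were checked on data made with known ratios. Those data had the same noise at every signal level, so the check covers the calling step and not the reliability of single arrays. The genes, 5 lists and 6 marker lists were chosen with earlier results of these data known. Of each list, called genes and a few bright, low or well-known ones below the threshold are named, the low ones chosen after their values were seen.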

Additional observations from a re-analysis of the deposited data

How the results depend on the processing

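The log2 ratios of the 7 genes kept their side of the threshold in all 222 values that the 11 alternatives gave. A change of filter does not alter the ratio of a probe set, so many of these values could not differ. Settings in which Angptl8 or Angptl4 was not read gave no value for that gene. The count of 1 gene higher at 1 h became 0 with a signal of at least 100 required on all 3 arrays and 0 with 200 required on any array, since Angptl8 is then not read. Angptl8 ranged from 0.92 (32 added to every signal) to 1.23 (same median on each array) at 1 h and from 0.53 to 0.75 at 2 h. Below the threshold the sign at 1 h was not settled for Retn (-0.12 to 0.01), Rbp4 (-0.06 to 0.10), Nampt (-0.08 to 0.08) and Angptl4 (-0.03 to 0.10), nor at 2 h for Nampt (-0.10 to 0.03). Lpl stayed between 0.02 and 0.27 at 1 h, but its kept probe sets differed in sign there (0.17 and -0.13). Angptl4 stayed between 0.20 and 0.28 at 2 h where it was read, and was not read without probe sets of the suffixes _x_at and _s_at. Scaling to the same median moved the median of all genes to 0.08 at 1 h, against -0.02 without it. Over all genes, the 109 higher and 15 lower at 1 h were 56 and 5 with 100 on all 3 arrays and 2181 and 2188 with no filter, and the 188 and 56 at 2 h were 109 and 12, and 2410 and 2164. The 46 higher and 22 lower for 2 h over 1 h were 15 and 6, and 2273 and 1973. Low signals carry the least information, and no replicate tells noise from change. No paired analysis was possible because there is 1 array per time point.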
